A study of Mus musculus with 11 samples.

Results

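The genes described are 10 mouse genes of the Nrf2 antioxidant response, namely Nfe2l2, Sqstm1, Gclc, Gclm, Txnrd1, Srxn1, Hmox1, Nqo1, Gsta4 and Gstm1. They were listed by name as known genes of the pathway, at a time when earlier results of these data were known, and found through the transcript accession that the scanner files give for each probe. Of 20284 genes named on the array in this way, the 10 genes had 12 of 55681 probes, with 2 probes each for Hmox1 and Gstm1 and 1 for each of the others. For a gene with 2 probes, the probe with the higher mean signal gives the reported value.

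Otospheres (OS) are floating spheres grown from dissociated cochlear sensory epithelium (CSE), and the study compared them with fresh CSE and with embryonic stem cells (ESCs) on single-colour mouse gene expression arrays. The 6 OS arrays held secondary otospheres after 1 passage, from ICR mice at postnatal day 1, cultured for 4 to 5 days before and again after the passage in DMEM-F12 with N2, B27, bFGF at 10 ng/ml, IGF1 at 50 ng/ml and heparan sulfate, and filtered to remove hollow spheres. The 3 CSE arrays held uncultured epithelium of ICR mice of the same age, with 20 cochleae pooled in a preparation and all cell types of the dissected tissue present. The 2 ESC arrays held the lines G4-2 (ES1) and D3 (ES2) at passage 13, grown without feeder cells in 10% serum, LIF at 1000 U/ml and 0.1 mM 2-mercaptoethanol, a reducing agent. No group received an oxidant or an Nrf2 activator according to the labels.

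Nrf2, the product of Nfe2l2, is a transcription factor that the adaptor Keap1 holds in the cytoplasm and delivers to a Cullin 3 ubiquitin ligase for degradation. Oxidants and electrophiles modify cysteines of Keap1, upon which Nrf2 accumulates, pairs with small Maf proteins and binds antioxidant response elements, while the repressor Bach1 competes for the same elements. Its target genes supply glutathione and thioredoxin, degrade haem, reduce quinones and conjugate electrophiles, and this response has been studied in the cochlea for its part in protection from noise and ototoxic drugs.

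The core of the antioxidant response element, TGACNNNGC, or GCNNNGTCA on the other strand, was searched in windows of 300 bases, from 250 before to 50 after each start site, in the promoter sequences of RefSeq (GRCm38.p6). Windows were given for 7 of the 10 genes, and 4 of the 7 (Nfe2l2, Gclm, Txnrd1 and Srxn1) held the core in at least 1 window, as did 3781 of 27025 genes with a window (14%) and 4071 of 32851 windows (12.4%). A match of so short a pattern describes the letters only. The match of Srxn1 lay after the start site. The stretches with the other matches are shown because these genes were among those higher in otospheres than in CSE, with the matched letters in capitals, each read 5′ to 3′ on the strand of the gene. The Nfe2l2 stretch is chr2:75704870-75704913 on the minus strand, upstream of the gene. The Gclm stretch is chr3:122245398-122245456 on the plus strand, upstream of the gene. The Txnrd1 stretch is chr10:82859089-82859147 on the plus strand, within the gene's span and upstream of an internal start site, 1 of 3 windows of Txnrd1.
Nfe2l2: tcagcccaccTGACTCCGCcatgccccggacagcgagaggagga
Gclm: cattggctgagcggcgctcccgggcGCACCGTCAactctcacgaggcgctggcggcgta
Txnrd1: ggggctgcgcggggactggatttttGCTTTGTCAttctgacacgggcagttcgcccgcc

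The arrays lay on 2 slides, slide 1 with ES1, OS1-3 and CSE1-2 and slide 2 with ES2, OS4-6 and CSE3, so the ESC line and the slide cannot be told apart. Median signal was 68 to 116 per array against a median local background of 32 to 38, no spot was saturated, and all 12 probes were well above background on all 11 arrays. Among 17418 bright probes, OS1 and OS2 differed by 0.952 times the noise between spots of a probe and OS4 and OS5 by 0.435 times, while every other pair within a group differed by at least 1.74 times. Each of these pairs was therefore averaged and counted as 1 sample, written OS1-2 and OS4-5, which leaves 4 OS, 3 CSE and 2 ESC samples. The labels do not say which otosphere samples came from separate cultures, so the p-values measure only the spread between these samples. The labelled identities were checked against marker genes. The 6 ESC markers had a summed linear signal of 187945 to 229095 in ESCs and at most 2397 elsewhere, although the probe of Nanog alone ran the other way (mean log2 intensity 8.44 in ESCs, 9.89 in otospheres and 10.11 in CSE). The 7 supporting cell markers summed to 35223 to 49842 in CSE and 7575 to 15860 in otospheres, the 8 hair cell markers to 22609 to 25118 and 2278 to 9128, and the 6 neuron markers to 22975 to 54122 and 3809 to 10979. Markers of macrophages and erythroid cells, both rich in haem-handling genes, were also higher in CSE. The 10 measured macrophage markers summed to 9355 to 10592 in CSE and to 2670 to 4771 in otospheres, where 5 (C1qa, C1qc, Cd163, Fcgr1, Mrc1) were not above background on any array. In ESCs they summed to 2703 to 2888. The probe of Csf1r was bright in otospheres and ESCs alike (mean log2 intensity 11.25 and 11.09), so the otosphere sum is no measure of macrophages. The 8 measured erythroid markers summed to 163784 to 297702 in CSE and 23584 to 32542 in otospheres. The part of these differences in cell makeup in the results that follow was not tested, and in whole-tissue RNA fewer cells of a type and less RNA per cell cannot be told apart.

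Between otospheres and CSE, the direct comparison of cultured spheres with the tissue they came from, 6 of the 10 genes were higher in otospheres at an adjusted p under 0.05 (Nfe2l2, Sqstm1, Gclc, Gclm, Txnrd1 and Srxn1) and none was lower, in a limma model fitted to all 47957 kept probes with Benjamini-Hochberg adjustment over them. The count was 4 with the slide as a block, where Gclc and Txnrd1 were lost, 3 without CSE1 or without CSE2, and 2 (Nfe2l2 and Srxn1) without CSE3 or with every array as a separate sample and the replicate block. With the replicate block, which groups arrays by number, OS4, OS5 and OS6 each stand alone and add nothing to the difference. That difference rests on OS1, OS2 and OS3 against the same-numbered CSE arrays, with OS1 and OS2 counted separately. Deviations of these arrays from their group means correlated at -0.39 (OS3 with CSE3) to 0.36 (OS1 with CSE1), so replicate numbers did not pair the samples. At an unadjusted p under 0.05 none was lower either, since all 10 differences were above 0. For comparison, 7.16% of the 18557 genes measured passed upward and 10.3% downward by the same rule, and since the genes were listed with earlier results known, the shares are a description. In 8 of the 10 genes every otosphere sample exceeded every CSE sample, a pattern found in 14.1% of all genes, and none had the reverse pattern, found in 18.9%. The median log2 difference of the 10 genes was 1.72, against -0.01 for all genes. Against ESCs, 1 of the 10 (Srxn1) was higher in otospheres and none lower, where 18.4% of all genes were higher and 20.4% lower, and the median difference of the 10 was 0.74. All otosphere samples exceeded both ESC lines for 3 genes (Nfe2l2, Sqstm1 and Srxn1) and lay below them for none, where 25.9% and 28.9% of all genes did so. Between CSE and ESCs, none of the 10 was higher and 2 (Gclm and Nfe2l2) were lower in CSE, where 20.9% and 20% of all genes were higher and lower, and the median was -0.67. All CSE samples lay below both ESC lines for 3 genes (Nfe2l2, Gclm and Hmox1) and above them for none, where 31.7% and 31.6% of all genes did so. The 3 comparisons share samples, so they are not independent of each other.

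**Figure D1:**
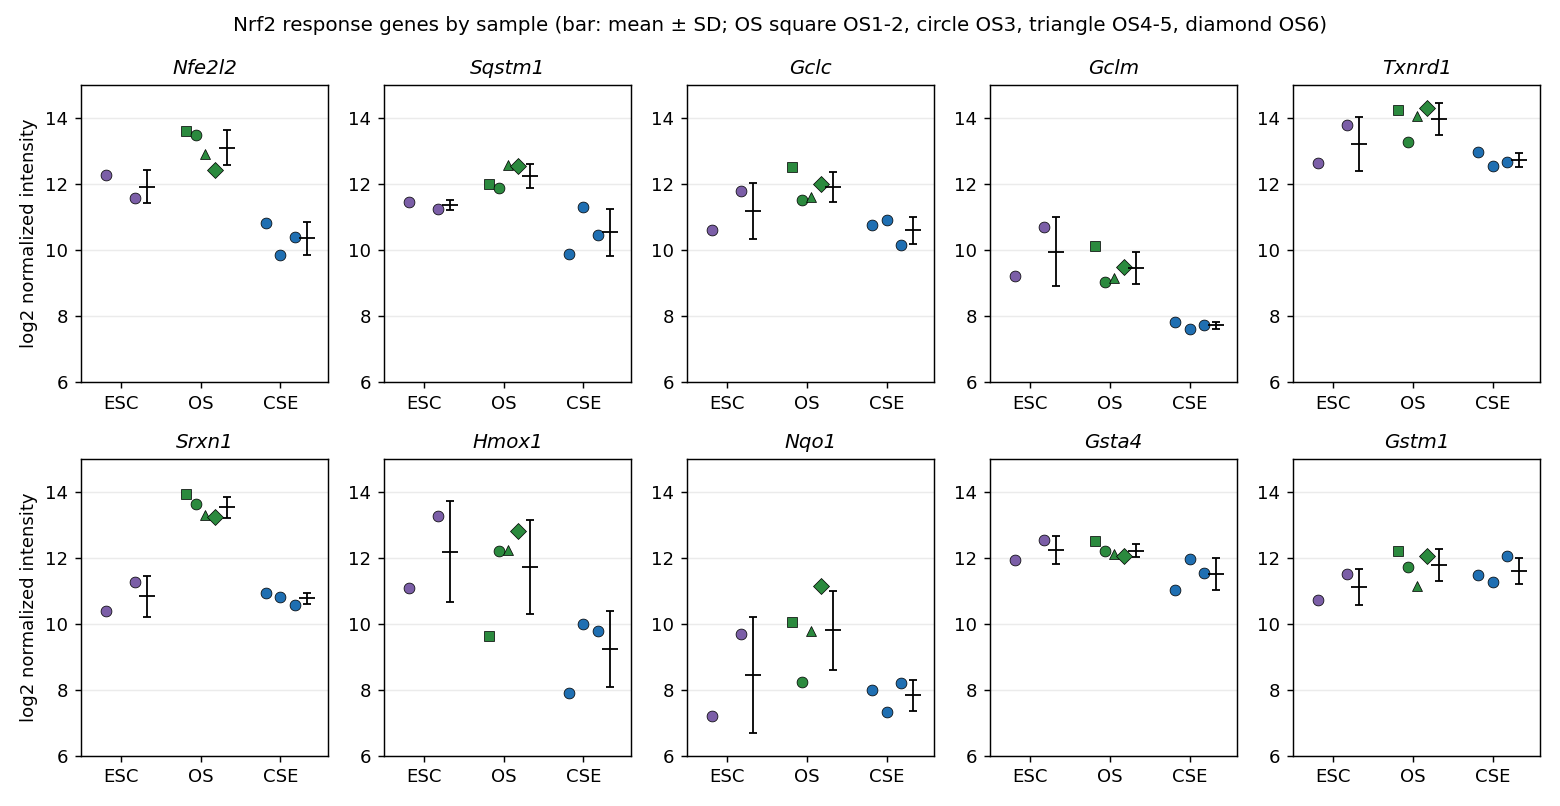
Signal of the 10 genes by sample, as log2 normalized intensity on the vertical axis, in ESCs (n = 2), otospheres (OS, n = 4) and CSE (n = 3), with 1 probe per gene. Points are samples and bars the mean ± SD of a group. Srxn1 and Nfe2l2 of all 4 otosphere samples lie above all other samples, and Hmox1 of OS1-2 lies with CSE, at 9.62.

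**Figure D2:**
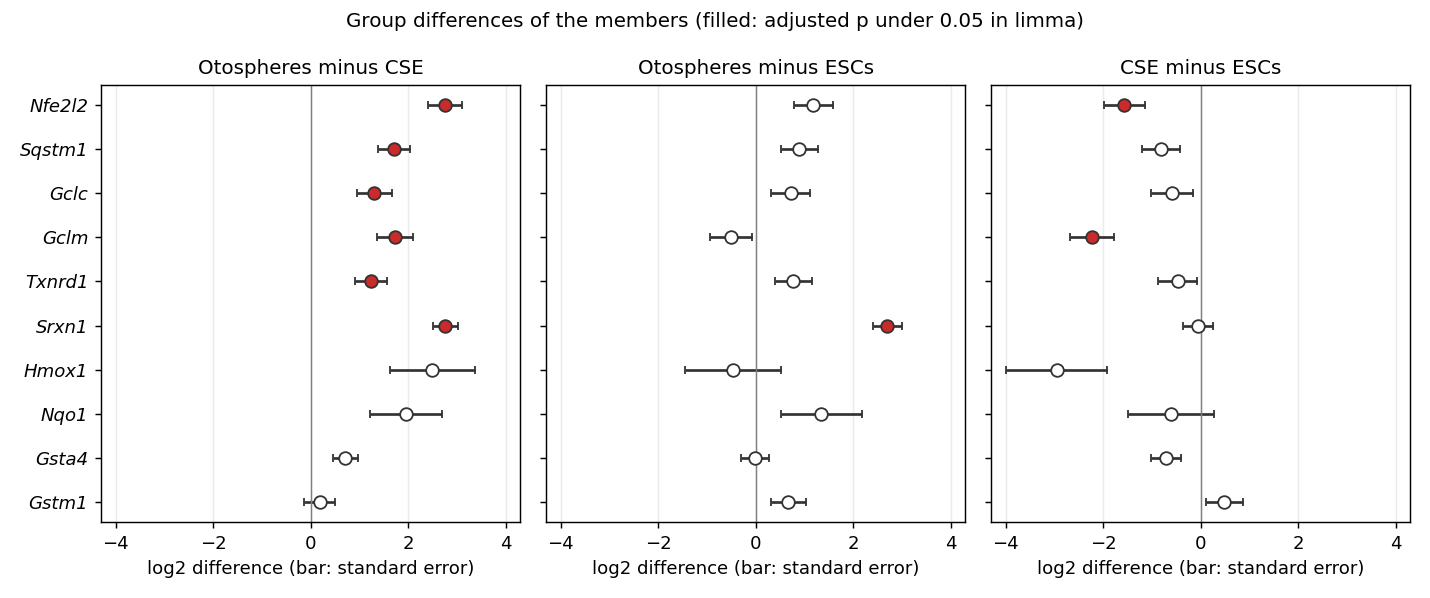
Log2 differences between the groups for the 10 genes, from the limma model of the 9 samples, with the standard error as bars and filled points where the adjusted p is under 0.05. Filled points number 6 for otospheres minus CSE, 1 for otospheres minus ESCs and 2 for CSE minus ESCs.

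Nfe2l2 (chr2:75675513-75704663), which encodes Nrf2 itself, was higher in otospheres than in both other groups in every sample. Its log2 intensities were 13.60 in OS1-2, 13.48 in OS3, 12.89 in OS4-5 and 12.43 in OS6. In CSE they were 10.81, 9.84 and 10.40, and in ESCs 12.27 (ES1) and 11.57 (ES2). The groups did not overlap in any of the 3 comparisons, with otospheres highest, ESCs between and CSE lowest, although OS6 exceeded ES1 by little. Nfe2l2 was 6.76-fold higher in otospheres than in CSE (log2 difference 2.76, SE 0.35, adjusted p = 0.00158 in limma). The difference was 3.22 on slide 1 and 2.27 on slide 2, and it passed the threshold under all 22 alternative settings. Compared with ESCs, the difference of 1.18 (SE 0.40) just missed the threshold (adjusted p = 0.0563 in limma) and passed it under 6 of the 22 alternatives. CSE was 2.97-fold below ESCs (log2 difference -1.57, adjusted p = 0.0212 in limma). That difference missed the threshold without ES1 (adjusted p = 0.139), without CSE2 (0.0606) or without CSE3 (0.0505).

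Sqstm1 (chr11:50200152-50210820) encodes p62, an autophagy receptor that binds Keap1 and is itself an Nrf2 target. Its log2 intensities in otospheres were 12.01 (OS1-2), 11.86 (OS3), 12.57 (OS4-5) and 12.55 (OS6), against 9.87, 11.29 and 10.44 in CSE and 11.46 and 11.24 in ESCs. Every otosphere sample was above every CSE and ESC sample, while CSE2 lay at the level of the ESCs. The increase over CSE was 3.28-fold (log2 difference 1.71, SE 0.33, adjusted p = 0.0120 in limma), and 1.36 and 2.12 on slides 1 and 2. The call was lost without CSE3 (adjusted p = 0.0532) and with every array and the replicate block (log2 difference 1.43, 0.0626). The difference of 0.90 from ESCs (adjusted p = 0.118 in limma) and that of -0.82 between CSE and ESCs (0.171) did not pass.

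Gclc (chr9:77754535-77794489) and Gclm (chr3:122245487-122267215) encode the catalytic and the modifier subunit of glutamate-cysteine ligase, the rate-limiting enzyme of glutathione synthesis. Gclc had log2 intensities of 12.51 (OS1-2), 11.53 (OS3), 11.60 (OS4-5) and 11.99 (OS6) in otospheres, 10.76, 10.90 and 10.14 in CSE, and 10.59 and 11.79 in ESCs. Gclm had 10.12, 9.03, 9.16 and 9.47 in the same otosphere samples, 7.81, 7.61 and 7.73 in CSE, and 9.20 and 10.70 in ESCs. For both subunits OS1-2 was the highest otosphere sample, all otosphere samples exceeded all CSE samples, and ES2 exceeded ES1 by more than 1 log2 unit. Gclm was 3.31-fold higher in otospheres than in CSE (log2 difference 1.73, SE 0.37, adjusted p = 0.0190 in limma) and Gclc 2.48-fold (1.31, SE 0.35, adjusted p = 0.0479). The call of Gclc lies at the edge of the threshold. It was lost under 17 of the 22 alternatives, at adjusted p of up to 0.179, with log2 differences that stayed between 1.08 and 1.59, while Gclm was lost under 4. Within slides the difference was 1.19 and 1.66 for Gclc and 1.87 and 1.58 for Gclm.

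The subunits parted in the comparison with ESCs. Gclm was 4.70-fold lower in CSE than in ESCs (log2 difference -2.23, SE 0.45, adjusted p = 0.00533 in limma), which passed under all 22 alternatives, whereas the difference of Gclc was -0.59 (adjusted p = 0.355). Otospheres differed from ESCs by -0.50 for Gclm (adjusted p = 0.437 in limma) and by 0.72 for Gclc (0.233). On slide 1, with ES1, otospheres were above the ESC line for both, by 0.37 for Gclm and 1.43 for Gclc, and on slide 2, with ES2, the differences were -1.38 and 0.01. No test between the 2 subunits was made.

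Txnrd1 (chr10:82833951-82897724), cytosolic thioredoxin reductase, and Srxn1 (chr2:152105524-152111376), sulfiredoxin, which restores overoxidized peroxiredoxins, stand for the thioredoxin arm. Srxn1 had log2 intensities of 13.92 (OS1-2), 13.64 (OS3), 13.29 (OS4-5) and 13.24 (OS6) in otospheres, 10.91, 10.80 and 10.58 in CSE, and 10.38 and 11.27 in ESCs. The 4 otosphere samples lay close together and nearly 2 log2 units above the highest of the other 5 samples, and the values of CSE lay between those of the 2 ESC lines. Srxn1 was 6.78-fold higher in otospheres than in CSE (log2 difference 2.76, SE 0.26, adjusted p = 0.000358 in limma). It was 6.50-fold higher than in ESCs (2.70, SE 0.29, adjusted p = 0.000222), the only call among the 10 genes in that comparison. Both calls held under all 22 alternatives, with log2 differences of 2.63 to 3.06 and 2.25 to 3.14. On slides 1 and 2 the difference from CSE was 2.92 and 2.69 and that from ESCs 3.40 and 2.00. Between CSE and ESCs it was -0.06 (SE 0.31, adjusted p = 0.917 in limma), a value whose sign changed under 4 alternatives.

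Txnrd1 had log2 intensities of 14.25 (OS1-2), 13.27 (OS3), 14.05 (OS4-5) and 14.30 (OS6) in otospheres, 12.97, 12.54 and 12.66 in CSE, and 12.62 and 13.78 in ESCs. OS3 was the lowest otosphere sample, still above CSE1 and below ES2. The gene was 2.37-fold higher in otospheres than in CSE (log2 difference 1.24, SE 0.34, adjusted p = 0.0474 in limma), by 1.00 on slide 1 and 1.51 on slide 2. As for Gclc, the call was marginal and was lost under 14 of the 22 alternatives, with differences of 1.13 to 1.49. It differed from ESCs by 0.77 in otospheres (adjusted p = 0.177 in limma) and by -0.47 in CSE (0.442).

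Hmox1 (chr8:75093618-75100593) encodes haem oxygenase 1, which degrades haem to biliverdin, iron and carbon monoxide, and is repressed by Bach1. Its log2 intensities were 9.62 in OS1-2, 12.20 in OS3, 12.24 in OS4-5 and 12.81 in OS6. In CSE they were 7.89, 9.99 and 9.77, and in ESCs 11.09 and 13.26. OS1-2 lay within the range of CSE, and the other 3 otosphere samples lay between the 2 ESC lines. The mean was 5.65-fold higher in otospheres than in CSE, but the spread was wide (log2 difference 2.50, SE 0.87, adjusted p = 0.116 in limma). Without OS1-2 the difference was 3.20 and passed (adjusted p = 0.0277), without CSE1 it was 1.84 (0.368), and with every array and the replicate block 1.26 (0.334). Within slides it was 1.97 and 2.75. The second, dimmer probe of Hmox1 gave 7.96, 8.71, 8.86 and 9.07 in the same otosphere samples, 6.68, 7.38 and 7.32 in CSE, and 8.62 and 10.48 in ESCs. On that probe OS1-2 was again the lowest otosphere sample but stood above all CSE samples, and the difference was 1.52 (SE 0.44, adjusted p = 0.0631 in limma).

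All CSE samples were below both ESC lines on both probes of Hmox1, and the probes parted on the call. The brighter probe gave a log2 difference of -2.96 (SE 1.04, adjusted p = 0.0632 in limma) and the dimmer one -2.43 (SE 0.53, adjusted p = 0.00827), a 5.38-fold lower signal. Macrophages, whose markers summed highest in CSE, are known to express Hmox1, and their part in these values was not tested. Otospheres and ESCs differed by -0.46 on the brighter probe (adjusted p = 0.780 in limma) and by -0.91 on the dimmer one (0.230).

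Nqo1 (chr8:107388225-107403205), a quinone reductase widely used as a readout of Nrf2 activity, had log2 intensities of 10.06 (OS1-2), 8.22 (OS3), 9.77 (OS4-5) and 11.14 (OS6) in otospheres, 7.98, 7.31 and 8.21 in CSE, and 7.21 and 9.69 in ESCs. OS3 exceeded CSE3 by less than 0.01 log2 units, so that the groups were separated only in rank, and ES1 was the lowest of the 9 samples. The mean was 3.90-fold higher in otospheres than in CSE (log2 difference 1.96, SE 0.74, adjusted p = 0.146 in limma). Without OS3 it was 2.49 and passed (adjusted p = 0.0460), without OS6 it was 1.51 (0.283), and with every array and the replicate block 1.61 (0.347). The values within slides were 1.49 and 2.25. The differences from ESCs were 1.35 for otospheres (adjusted p = 0.282 in limma) and -0.61 for CSE (0.669), with SEs of 0.83 and 0.88.

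Gsta4 (chr9:78191966-78209349) and Gstm1 (chr3:108012250-108017973) encode glutathione S-transferases, Gsta4 with a preference for 4-hydroxynonenal, a product of lipid peroxidation. Gsta4, whose probe was spotted 10 times on each array, had log2 intensities of 12.49, 12.21, 12.11 and 12.05 in OS1-2, OS3, OS4-5 and OS6, 11.01, 11.96 and 11.55 in CSE, and 11.93 and 12.52 in ESCs. All otosphere samples exceeded CSE, with CSE2 just below OS6. The difference from CSE was 0.71 (SE 0.26, adjusted p = 0.129 in limma), 0.87 and 0.53 within slides. It was 0.07 in the authors' deposited table (adjusted p = 0.872 in limma) but 0.71 with an offset of 0 (0.163). For every other member these settings gave nearly the same difference from CSE, as for Hmox1 (2.54 in both). Why only Gsta4 parted was not tested. With every array as a sample the difference of Gsta4 passed (0.74, 0.0466). Gstm1 had 12.21, 11.71, 11.14 and 12.05 in otospheres, 11.47, 11.27 and 12.04 in CSE, and 10.72 and 11.49 in ESCs, with full overlap of otospheres and CSE. Its difference from CSE was 0.19 (SE 0.32, adjusted p = 0.850 in limma) and turned from 0.59 on slide 1 to -0.44 on slide 2, and the second probe turned likewise from 0.66 to -0.27. These were the smallest differences among the 10 genes, and Gstm1 was the single one whose sign differed between slides in that comparison. The family has close paralogs, so a probe may also bind the transcripts of relatives.

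The genes also varied within groups, and 9 of the 10 ranged more widely over the otosphere samples than the median gene. Over the 4 samples Hmox1 ranged over 3.19 and Nqo1 over 2.93 log2 units, where the median range of all genes was 0.64 and the 95th percentile 2.47. The remaining 8 genes ranged from 0.44 (Gsta4) to 1.17 (Nfe2l2). The high and low samples were not the same for each gene. Hmox1 was lowest in OS1-2, whereas Nqo1, Gclm, Gclc, Txnrd1 and Sqstm1 were lowest in OS3, and Nfe2l2, Srxn1 and Gsta4 were lowest in OS6 and highest in OS1-2. Between slides, the otosphere mean of slide 2 was higher for Hmox1 by 1.61 and for Nqo1 by 1.32, and that of Nfe2l2 was lower (-0.88). Marker sums varied over the same samples. The mesenchyme markers summed to 150575 in OS1-2, 276350 in OS3, 99688 in OS4-5 and 85854 in OS6, and the hair cell markers to 3354, 2278, 6536 and 9128. Some mesenchyme markers fell far more from OS3 to OS6 than the sum. Log2 intensities went from 15.66 to 6.53 for Col3a1, 15.96 to 8.67 for Col1a2 and 10.68 to 5.48 for Tbx18. Dcn fell less (16.98 to 15.59), and only Lum rose (14.47 to 15.12). The part of these markers in the spread was not tested.

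OS1 and OS2, which over all bright probes differed by no more than the noise between spots, parted for these genes. OS1 was higher in 9 of the 10, and in 7 the excess was above the 95th percentile of all genes (0.33). Nqo1 was 10.48 in OS1 and 9.63 in OS2, a difference of 0.85 that exceeded that of 99.8% of genes. Gclc differed by 0.81, Gclm by 0.69, Srxn1 by 0.64, Gstm1 by 0.42, Hmox1 by 0.37 and Gsta4 by 0.36, and Nfe2l2 itself by -0.08. In the pair OS4 and OS5 the differences lay between -0.11 and 0.13, and none was outside the 5th to 95th percentile of all genes. With OS2 alone in place of the mean of the pair, 5 genes were higher in otospheres than in CSE, Txnrd1 being lost, and with OS1 alone 5 were, Gclc being lost.

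The 2 ESC lines also differed for these genes. The D3 line (ES2) was above G4-2 (ES1) in 8 of 10, by 2.48 for Nqo1, 2.17 for Hmox1, 1.49 for Gclm, 1.19 for Gclc, 1.16 for Txnrd1, 0.89 for Srxn1, 0.77 for Gstm1 and 0.59 for Gsta4. Nqo1 and Hmox1 exceeded the 95th percentile of all genes (1.50), whose median was -0.05. In the other direction lay Nfe2l2 (-0.71) and Sqstm1 (-0.22). With 1 array per line and the lines on different slides, the difference has no replicate check. Leaving out ES2 turned the difference between otospheres and ESCs from -0.46 to 0.62 for Hmox1 and from -0.50 to 0.24 for Gclm.

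**Figure D3:**
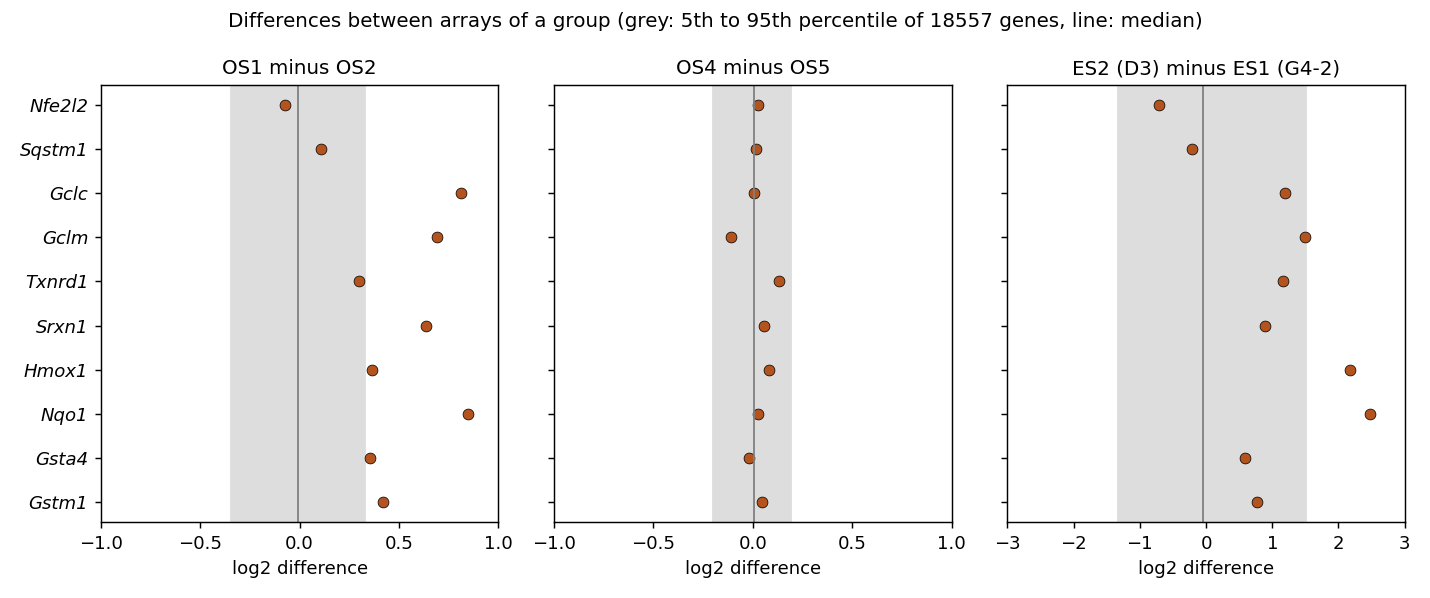
Log2 differences between arrays of 1 group for the 10 genes, for OS1 minus OS2, OS4 minus OS5 and ES2 minus ES1, with the 5th to 95th percentile of all 18557 genes in grey and their median as a line. For OS1 minus OS2, 7 of the 10 points lie above the grey band, for OS4 minus OS5 none does, and for ES2 minus ES1 Nqo1 and Hmox1 do. The third panel has a wider horizontal scale.

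Beyond the 10 genes, 96 of 98 genes in 10 lists of the wider pathway were measured. In otospheres compared with CSE, 21 of the 96 were higher and 4 lower, with a median difference of 0.50, where 7.16% and 10.3% of all genes passed. Compared with ESCs, 32 were higher and 3 lower in otospheres, with a median of 0.53, where 18.4% and 20.4% of all genes passed. Between CSE and ESCs 19 were higher and 11 lower in CSE, with a median of 0.02, where 20.9% and 20% of all genes passed.

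Of 12 genes listed as regulators or relatives of Nrf2, otospheres exceeded CSE for 3 and were below it for 1, where 7.16% and 10.3% of all genes passed. The relatives Nfe2l3 (log2 difference 2.51, adjusted p = 0.00270 in limma) and Nfe2l1 (1.52, 0.00115) were higher, as was Mafg (1.07, 0.0173), a small Maf partner. Btrc, an F-box protein that recognizes Nrf2 independently of Keap1, was lower (-1.93, 0.00937). The negative regulator Keap1 differed by 0.48 (adjusted p = 0.208 in limma), the repressor Bach1 by 0.65 (0.0928) and Bach2 by 0.67 (0.599). The ligase components Cul3 and Rbx1 differed by 0.69 (0.282) and 0.45 (0.191), Mafk by 1.40 (0.122), and Gsk3b, a kinase that marks Nrf2 for Btrc, by -0.18 (0.652). Maff differed by 2.71 (0.0624) with CSE1 at 6.95, CSE2 at 6.23 and CSE3 at 10.06, so that CSE3 reached the level of otospheres (10.03 to 10.77).

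Compared with ESCs, 6 of these 12 genes were higher in otospheres and none lower, where 18.4% and 20.4% of all genes passed. They were Nfe2l3 (3.54, adjusted p = 0.000305 in limma), Gsk3b (2.40, 4.57e-05), Bach2 (2.40, 0.0195), Keap1 (1.82, 0.000532), Bach1 (1.40, 0.00234) and Nfe2l1 (0.89, 0.0106). Keap1 and Bach1, which restrain the response, were thus higher in otospheres than in ESCs together with Srxn1. The differences of the others were 1.26 for Maff, 1.1 for Mafk, 0.98 for Btrc, 0.64 for Cul3, 0.52 for Mafg and 0.02 for Rbx1, and none of these passed. Between CSE and ESCs, 3 of the 12 were higher in CSE and none lower, where 20.9% and 20% of all genes passed. The 3 were Btrc (2.91, adjusted p = 0.00108 in limma), Gsk3b (2.59, 4.27e-05) and Keap1 (1.34, 0.00343).

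Glutathione genes were the list with the largest share of calls against CSE, with 6 of 10 higher in otospheres, none lower and a median of 1.02. Of all genes 7.16% were higher and 10.3% lower. Against ESCs 3 of the 10 were higher in otospheres and none lower, with a median of 0.08, where 18.4% and 20.4% of all genes passed. Between CSE and ESCs none was higher and 5 were lower in CSE, with a median of -0.75, where 20.9% and 20% of all genes passed. The glutathione peroxidase Gpx2 had log2 intensities of 16.81, 16.22, 17.25 and 17.54 in OS1-2, OS3, OS4-5 and OS6, 11.27, 10.79 and 11.41 in CSE, and 7.29 and 11.84 in ESCs. The otosphere samples were all over 4 log2 units above the rest, a difference of 5.79 from CSE (SE 0.88, adjusted p = 0.00376 in limma) and of 7.39 from ESCs (SE 1.00, adjusted p = 0.000729). Gpx3, the secreted peroxidase, differed from CSE by 2.28 (adjusted p = 0.0270 in limma) and lost the call under 7 of the 22 alternatives. Slc7a11, the cystine transporter subunit that feeds glutathione synthesis, was not well above background on either ESC array and was at least 3.24-fold higher in otospheres (adjusted p = 0.00271 in limma).

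Among genes of conjugation, detoxification and export, otospheres exceeded CSE for 8 of 28 and were below it for 3, with a median of 0.39. Of all genes 7.16% were higher and 10.3% lower, so the share of lower genes in this list was near that of all genes. Ephx1, microsomal epoxide hydrolase, differed by 3.88 (adjusted p = 0.00234 in limma) and Gsta1 by 3.33 (0.00379), while Gstm7 (-1.71, 0.00279) and Mgst3 (-1.42, 0.00798) were lower. The direction thus differed within the glutathione S-transferases, among which Gstm1 and Gsta4 passed in neither direction. Compared with ESCs, 11 were higher and 2 lower in otospheres, where 18.4% and 20.4% of all genes passed. Mgst1, a membrane-bound transferase, was higher by 5.34 (8.38e-06), and Gsta1, not well above background in ESCs, was at least 35.0-fold higher (0.000275). Gstm6 (-2.76, 0.00275) and the exporter Abcc4 (-2.53, 0.00203) were lower. Gsta1 has near-identical relatives, and which of them its probe measures is uncertain.

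In each of the other lists at most 1 gene was called against CSE, where 7.16% of all genes were higher and 10.3% lower. In the thioredoxin and peroxiredoxin list 1 of 10 was higher, Prdx1 (0.98, adjusted p = 0.0131 in limma), and the median was -0.22. In the list of NADPH supply 1 of 6 was higher, G6pdx (1.01, 0.0296), the entry enzyme of the pentose phosphate pathway, whose call was lost under 7 of the 22 alternatives. None of 7 genes of haem and iron handling, 4 of superoxide and catalase enzymes and 9 autophagy receptors and Atg8 proteins passed in limma, with medians of 0.10, 0.47 and 0.39. The aryl hydrocarbon receptor list had 1 of 5, Cyp1b1 (3.14, 0.000307), and the heat shock list 1 of 5, the small chaperone Hspb1 (4.33, 0.00189).

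Against ESCs, where 18.4% of all genes were higher and 20.4% lower, otospheres were higher for Prdx5 (1.23, adjusted p = 0.00120 in limma), malic enzyme Me1 (3.70, 0.000432), G6pdx (0.96, 0.0285), the ferritin chains Fth1 (1.80, 0.00417) and Ftl1 (0.88, 0.0382), Gabarapl1 (2.47, 0.000159) and Gabarap (2.18, 0.000132) of the Atg8 family, Cyp1b1 (6.42, 3.73e-06) and the receptor Ahr (3.25, 0.000175). Extracellular superoxide dismutase Sod3, not well above background in ESCs, was at least 40.9-fold higher (0.000509). The chaperone Hsph1 was lower (-1.62, 0.00575). Of the single genes of these lists, Ftl1 lost its call under 10 of the 22 alternatives and G6pdx under 6.

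**Figure D4:**
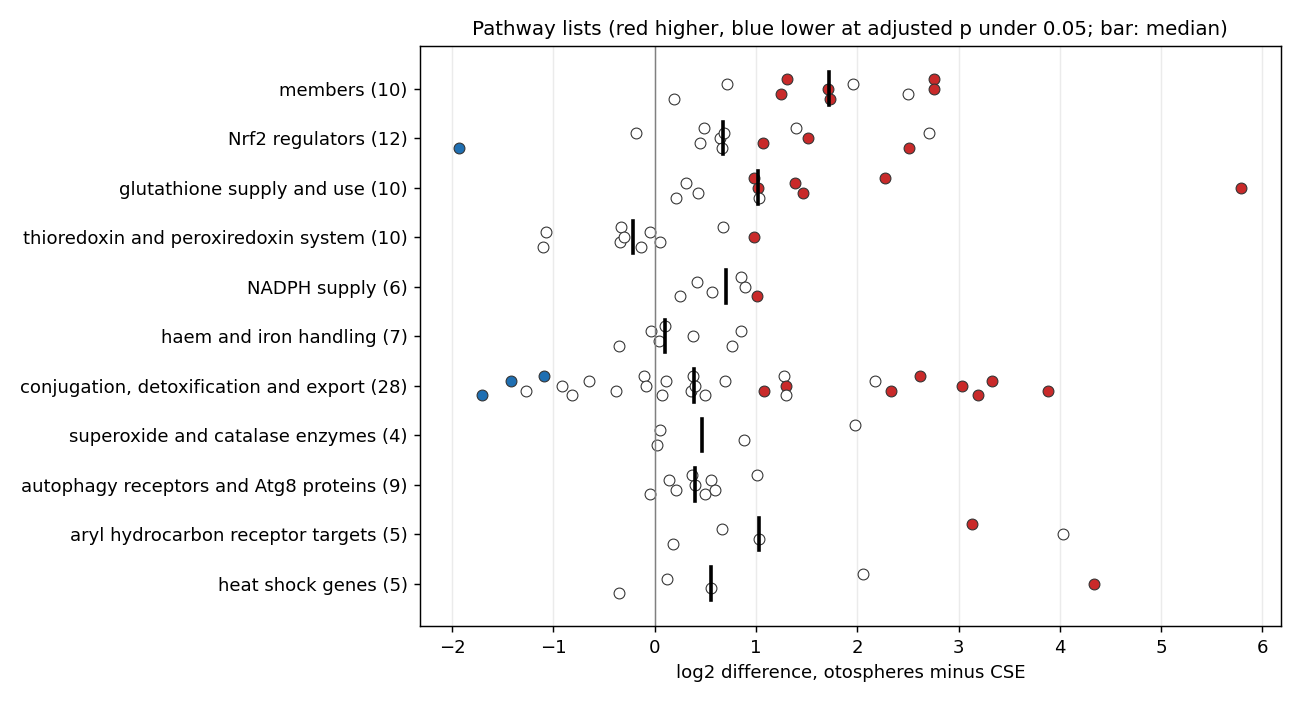
Log2 differences between otospheres and CSE for the 10 genes (members, top row) and for each measured gene of the 10 pathway lists, with the number of genes in brackets. Red points are higher and blue points lower in otospheres at an adjusted p under 0.05 in limma, open points did not pass, and bars are medians, which run from -0.22 in the thioredoxin and peroxiredoxin list to 1.72 in the 10 genes.

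Likeness of pattern was measured as the root mean square difference between the log2 values of 2 genes, each centred on its mean over the 9 samples, among 18556 other genes. The genes nearest to Nfe2l2 were Relb (0.19), Dcxr (0.29) and Bst1 (0.30), each highest in OS1-2 or OS3 and lowest in CSE. Those nearest to Hmox1 were Nr1d1 (0.92), Tor3a (0.96) and Eda2r (0.97), each more than 4 times the distance of Relb from Nfe2l2. The values were not scaled, so the distance grows with a gene's own range. Hmox1 spanned 7.89 to 13.26 over the 9 samples and Nfe2l2 9.84 to 13.60, so their distances are not directly comparable. Among the 10 genes the nearest pair was Gclc and Txnrd1 (0.30) and the farthest Hmox1 and Gstm1 (1.78). Srxn1 was nearest to Nfe2l2 (0.78) of the other 9.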

How the data were processed

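RNA of 11 samples was hybridized to single-colour arrays. The deposited scanner files give, for every spot, a median intensity, its local background and a processed intensity from Feature Extraction 10.7.3.1, without scaling between arrays. A log2 table that the authors had background-corrected, quantile-normalized and filtered was also deposited and served only as an alternative. Here normexp (offset 16; limma 3.58.1, R 4.3.3) was applied to the median intensities, followed by log2 and quantile normalization of all 11 arrays. Control probes and outlier-flagged spots were removed and replicate spots averaged. A probe was kept (47957 of 55681) if at least 2 arrays showed it 10% or more above the 95th percentile of 308 negative controls. The study's own filter asks for 3 arrays. It was set at 2 here since the ESC datasets that the study added from elsewhere were not used, which leaves 2 ESC arrays. RefSeq symbols (GRCm38.p6) were found by accession for 26762 probes and for 28919 there was none. The pairs OS1-2 and OS4-5 were averaged.

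A limma model with 3 group means was fitted over the kept probes, with Benjamini-Hochberg adjustment and a threshold of 0.05, after the procedure was tested on simulated data. If a probe was well above background on none of a group's arrays, its fold was computed as a lower limit, against the higher of its own signal and the lowest signal well above background. The number of arrays limits the precision. The members and lists were chosen with earlier results of these data known. Named besides the 10 members are all genes listed as regulators or relatives of Nrf2, the 2 largest rises and 2 largest falls past the threshold of each list for otospheres against CSE and against ESCs, and the 3 genes most like Hmox1 and Nfe2l2. Alternatives were every array as a sample, blocks for slide and replicate number, offsets of 0 and 50, scaling to the 75th percentile, cyclic loess, the authors' table, the filter, the mean of a gene's probes and leaving out each sample. The 2 settings with 1 array of the OS1-2 pair were chosen after seeing the data.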

Additional observations from a re-analysis of the deposited data

How the results depend on the processing

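With 22 alternative settings, the 10 genes gave 220 values in each comparison. For otospheres against CSE 180 kept their direction and side of the threshold, 37 kept the direction and lost the call, 3 gained it and none turned. For otospheres against ESCs 201 kept both, 8 gained a call and 11 turned, and for CSE against ESCs 201 kept both, 3 lost and 9 gained a call and 7 turned. The cause was not tested. Srxn1 and Nfe2l2 kept their calls against CSE under all 22.

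Members higher in otospheres than in CSE numbered 6, and 2 (Srxn1 and Nfe2l2) with every array as a sample and the replicate block. In that setting OS4, OS5 and OS6 add nothing to the difference. Replicate numbers did not pair the samples (correlations of same-numbered deviations -0.39 to 0.36). Some otosphere and CSE arrays of unlike number did correlate, namely OS2 with CSE1 (0.47), OS3 with CSE2 (0.50), and OS4 (0.29) and OS5 (0.31) with CSE3. Others of unlike number went down to -0.33 (OS3 with CSE1). Whether such arrays share a batch was not tested, and no such pairing was modelled. Leaving out single samples gave 2 to 6, with 3 without CSE1, 3 without CSE2 and 2 without CSE3. The count was 4 with the slide as a block, offsets of 0 or 50, scaling to the 75th percentile, the authors' table or no filter. Members higher in otospheres than in ESCs numbered 2, not 1, with every array, the replicate block, the slide block or cyclic loess (Nfe2l2 added), and 1 to 3 with samples left out. Members lower in CSE than in ESCs numbered 4, not 2, with scaling to the 75th percentile, 3 with the replicate block, the slide block or the mean of a gene's probes (Hmox1 added), and 1 to 3 with samples left out.

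Other pathway genes higher in otospheres than in CSE numbered 33, not 21, with every array, and 13 to 24 with samples left out (13 without CSE1 and without OS4-5). Those lower numbered 2, not 4, with scaling to the 75th percentile. Against ESCs that scaling gave 21 higher and 9 lower in place of 32 and 3, and it moved the median of all genes to -0.26. Lower genes numbered 5 with every array or the mean of a gene's probes, and 3 to 6 with samples left out (6 without ES1 and without ES2). Genes lower in CSE than in ESCs numbered 20, not 11, with that scaling, 18 with the mean of a gene's probes, and 7 to 13 with samples left out (7 without CSE2).

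Turned values for otospheres against ESCs were those of Gsta4 (0.0196 with every array, 0.21 with the replicate block, 0.0308 with cyclic loess, 0.00334 with the authors' table, -0.30 to 0.28 with samples left out), Hmox1 (-1.55 to 0.62) and Gclm (-1.25 to 0.24). For CSE against ESCs they were those of Srxn1 (0.0329 with the replicate block, 0.29 with cyclic loess, -0.51 to 0.38 with samples left out), Nqo1 (-1.86 to 0.63), Gclc (-1.19 to 0.00552) and Txnrd1 (-1.05 to 0.11). Signal over background did not limit the 10 genes, whose probes were well above background on all 11 arrays.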
